A study of Mus musculus with 39 samples.

Results

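NADPH oxidases are membrane enzymes that take electrons from NADPH and pass them to oxygen, which yields superoxide or hydrogen peroxide. The 9 genes described here were taken by symbol from the 53465 genes of the expression table. Cybb, Cyba, Ncf1, Ncf4 and Rac2 encode parts of the phagocyte oxidase, and Nox1, Noxo1, Duox2 and Duoxa2 encode parts of oxidases of epithelia. All 9 were in the table and all 9 passed the filter on low values (3 or more libraries with a TPM of 1 or above). Nox1, Duox2 and Duoxa2 passed through some groups alone. Nox1 reached a TPM of 1 in 15 libraries, and Duox2 and Duoxa2 did so in the 12 intestinal libraries.

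In resting phagocytes the membrane pair of Cybb, the catalytic subunit, and Cyba, its stabilising partner, is kept apart from cytosolic proteins that include Ncf1 and Ncf4. On activation these proteins and the GTPase Rac2 join the membrane pair, and the complex produces the superoxide burst used against microbes. Granulocytic myeloid-derived suppressor cells are known for restraining T cells partly through this oxidase. Nox1 is the homologous catalytic subunit of the colon epithelium, with Noxo1 as organiser, Noxa1 as activator and Cyba as shared partner. Duox2 releases hydrogen peroxide at mucosal surfaces and needs the maturation factor Duoxa2 to leave the endoplasmic reticulum.

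RNA came from 39 mouse samples in 13 groups of 3 libraries. C57BL/6 mice, newborn at P7, gave all bone marrow cells and the granulocytic (G) and monocytic (M) sorts of marrow. Spleens of BALB/c mice labelled as immune-deficient gave G, M and combined (G+M) sorts. APCmin/+ mice carry a mutant Apc allele that leads to intestinal tumours, and they gave the same 3 sorts from spleen and from intestine, and all intestinal cells. Strain and genotype differ together between the marrow, the BALB/c and the APCmin/+ mice. The sources used here do not give the sort markers, the stretch of intestine, the kind of immune deficiency or ages other than P7. Nor do they say that the 3 libraries of each group are separate animals, so p values measure only the spread between these samples, which may be technical.

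Values are in TPM, a measure of transcript abundance per transcript length that sums to 1000000 in every library, so levels can be set side by side between genes while the read depth is unknown. Pearson correlations of log2(TPM + 1) within a group were between 0.983 and 0.996. In the intestinal sorts epithelial transcripts prevailed over those of neutrophils. The summed TPM of 12 epithelial genes averaged between 12710 and 15352 in the 4 intestinal groups, against 63.1 at most in the other 9 groups. Likewise, 11 neutrophil genes had sums that averaged between 47.3 and 280 in intestine, against at least 6484 elsewhere, with none of the 11 listed at 0 in all libraries of a group. The mean of 280, in intestinal G sorts, rested on 1 library, with sums of 44.4, 731 and 64.0 TPM. Monocyte genes, 8 in all, followed the M label, with sums of 604 TPM in intestinal M sorts, 123 in G sorts, 220 in G+M sorts and 287 in all cells. The spleen sorts also carried B cell transcripts, with 9 B and plasma cell genes summing to between 3177 and 6123 TPM, and APCmin/+ spleen libraries were uneven, with neutrophil sums of 25333, 133322 and 59582 TPM in G sorts. Sorts are therefore called by their labels throughout.

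The 3 upstream sequences are shown because their genes stand for the patterns in the data. Cybb and Nox1 encode homologous catalytic subunits, with Cybb lowest in the intestinal groups and Nox1 highest in 2 of them, and Duoxa2 lies head to head with Duox2 and had the same tissue pattern. Bases come from RefSeq promoter windows of GRCm38.p6, the build of the deposited files (mm10), in which 7 of the 9 members were matched. Each line runs 5′ to 3′ on the strand of the gene and ends at the base before the annotated start, except that Cybb runs on for 25 bases past it. Capitals mark matches to GATA or to the core of the PU.1 motif for Cybb, to GATA or CDX for Nox1, and to the TATA motif for Duoxa2.
Cybb, chrX:9469300-9469574, minus strand: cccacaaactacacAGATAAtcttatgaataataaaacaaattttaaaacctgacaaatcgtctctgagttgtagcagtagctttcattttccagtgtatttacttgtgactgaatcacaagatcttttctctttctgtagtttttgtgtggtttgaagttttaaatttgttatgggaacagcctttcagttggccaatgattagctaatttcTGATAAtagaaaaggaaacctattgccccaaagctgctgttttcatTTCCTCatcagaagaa
Nox1, chrX:134111855-134112104, minus strand: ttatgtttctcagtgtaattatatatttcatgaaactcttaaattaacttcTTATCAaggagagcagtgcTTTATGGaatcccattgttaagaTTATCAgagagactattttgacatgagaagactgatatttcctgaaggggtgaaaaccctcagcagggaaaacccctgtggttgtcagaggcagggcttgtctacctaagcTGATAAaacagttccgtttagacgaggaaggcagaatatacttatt
Duoxa2, chr2:122298650-122298899, plus strand: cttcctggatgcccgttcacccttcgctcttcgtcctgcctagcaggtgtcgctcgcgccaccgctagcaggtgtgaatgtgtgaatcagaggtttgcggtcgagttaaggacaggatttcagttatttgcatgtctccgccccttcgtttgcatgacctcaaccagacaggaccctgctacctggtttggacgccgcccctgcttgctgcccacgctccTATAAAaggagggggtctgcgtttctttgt

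The motifs searched, on both strands of 300 bases (250 before to 50 after the start), were GAGGAA for PU.1, AGATAA or TGATAA for GATA factors, TTTATNG for CDX and TATAAA for TATA. Of 32851 such windows, 28.3% held the PU.1 core, 18.6% the GATA motif, 10.9% the CDX motif and 13.6% the TATA motif. The Cybb window held a PU.1 core on the opposite strand, which begins 10 bases after the start, and GATA matches at -236 and -37. The Nox1 window held 3 GATA matches (-199, -157 and -46), a CDX match at -180 and, left in lower case, a PU.1 core at -23. In Duoxa2 the TATA match began at -30 and overlapped a CDX match on the opposite strand. The Cyba window held 2 GATA matches, and the windows of Ncf1, Noxo1 and Duox2 held none of these motifs. In GENCODE M21 the models of Cybb (chrX:9435252-9487771) and Nox1 (chrX:134086421-134221956) reach upstream of these RefSeq starts, so both printed windows lie within the annotated genes. Duox2 (chr2:122279247-122298449, minus strand) and Duoxa2 (chr2:122298900-122302885, plus strand) are separated by 450 bases. The others are Cyba (chr8:122424776-122432930, minus strand), Ncf1 (chr5:134220053-134229625, minus strand), Ncf4 (chr15:78244801-78262580, plus strand), Rac2 (chr15:78559167-78572783, minus strand) and Noxo1 (chr17:24696234-24700529, plus strand). On the opposite strand Cyba overlaps Gm20388, Ncf1 overlaps Gtf2ird2, Nox1 overlaps Cstf2 and Arl13a, Noxo1 overlaps Tbl3 and Duoxa2 overlaps Duoxa1. The sources used here do not say whether strand was used in counting.

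Cybb, the catalytic subunit of the phagocyte oxidase, had its highest level in marrow M sorts, at 919, 849 and 916 TPM (894 ± 39.2, mean ± SD, n = 3). Spleen M sorts followed, with 544, 502 and 667 TPM in BALB/c mice and 408, 447 and 768 TPM in APCmin/+ mice. These 2 spleen groups overlapped, as did APCmin/+ spleen M and marrow G sorts, the latter at 477, 474 and 525 TPM. The G and G+M sorts of both spleens and all marrow cells had means between 171 and 286 TPM, with overlap between neighbours in the order of their means. The intestinal libraries stood apart from all others. Their means were 27.6 ± 5.39 TPM in M sorts, 20.9 ± 6.84 in all cells, 8.50 ± 4.26 in G sorts and 5.65 ± 0.839 in G+M sorts (SD, n = 3). All 12 intestinal libraries lay below 33.8 TPM and the other 27 above 155 TPM. Neighbouring intestinal groups overlapped, apart from all cells and G sorts. Fewer cells of a type and less RNA per cell cannot be told apart in these bulk libraries.

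Cyba, the partner shared by the phagocyte oxidase and Nox1, had the narrowest fold range of group means among the phagocyte members, from 81.7 to 936 TPM. It peaked in marrow M sorts at 979, 1008 and 820 TPM, followed by marrow G sorts at 678, 680 and 585 TPM, without overlap. The spleen groups and all marrow cells had means between 376 and 614 TPM. In intestine the means were 109 ± 14.6 TPM in all cells, 103 ± 16.5 in M, 82.1 ± 21.8 in G and 81.7 ± 14.1 in G+M sorts (SD, n = 3), and neighbouring groups overlapped. In each intestinal group Cyba was the most abundant phagocyte member.

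The organiser Ncf1 and the GTPase Rac2 had their highest levels in marrow G sorts, unlike Cybb. Ncf1 measured 1027, 979 and 1077 TPM in marrow G sorts and 881, 789 and 853 TPM in marrow M sorts, without overlap. Rac2 measured 732, 741 and 777 TPM in marrow G sorts and 697, 662 and 693 TPM in marrow M sorts, again without overlap. These margins between G and M did not pass the test, with a difference in log2(TPM + 1) of 0.29 ± 0.31 (SE) for Ncf1 and 0.13 ± 0.22 for Rac2. Ncf4, which binds phosphoinositides of the phagosome, led in marrow M sorts at 722, 670 and 717 TPM and overlapped marrow G sorts at 595, 603 and 671 TPM. Across the 6 spleen groups the means spanned 213 to 437 TPM for Ncf1, 317 to 374 for Ncf4 and 323 to 520 for Rac2. In intestine the means of these 3 genes lay between 5.50 and 25.6 TPM, lowest in G+M sorts for each.

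**Figure D1:**
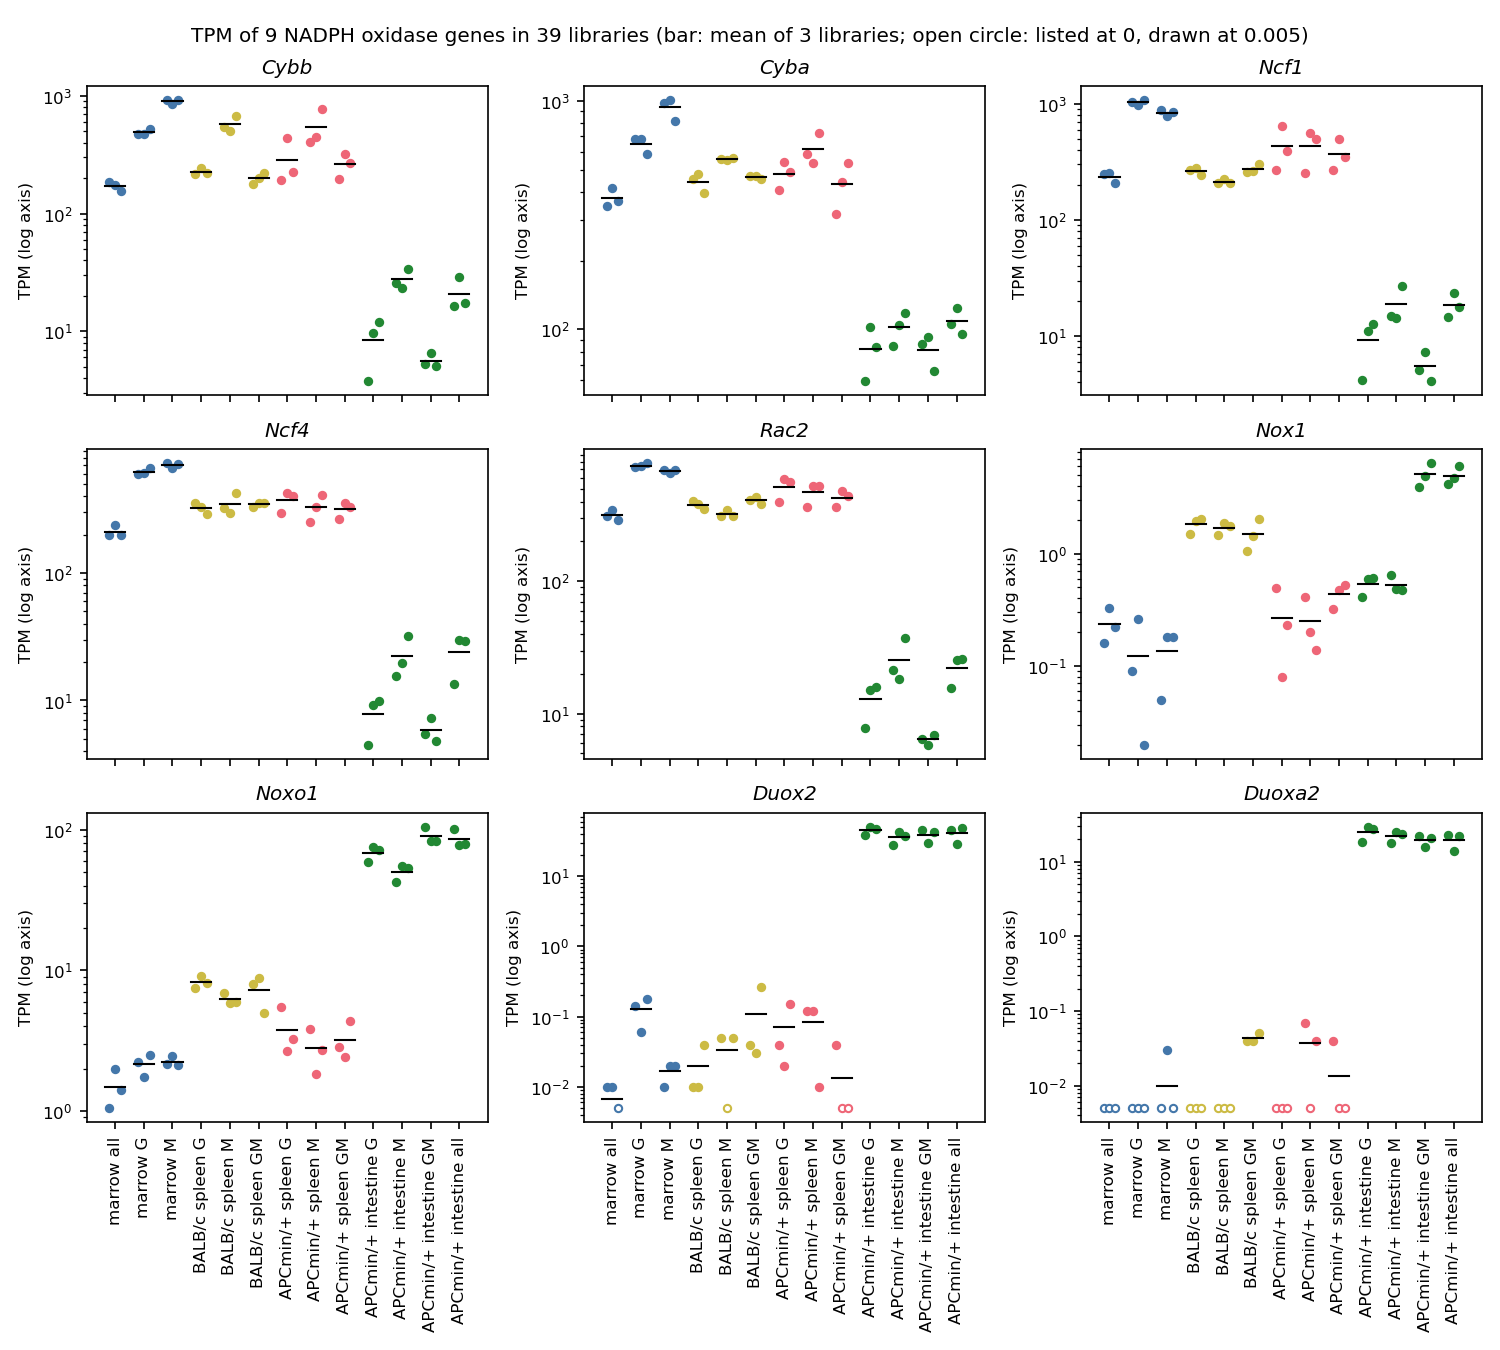
TPM (log axis) of the 9 oxidase genes in each library of the 13 groups, with a bar at the mean of 3 libraries. The phagocyte genes are lowest in the intestinal groups, Duox2 and Duoxa2 are at 0.26 TPM or less outside them, and Nox1 splits the intestinal groups.

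Nox1, the catalytic subunit, was low in every group. It measured 3.94, 4.91 and 6.33 TPM in G+M sorts and 4.14, 4.69 and 5.98 TPM in all intestinal cells, which overlapped. The next levels were those of BALB/c spleen, where G sorts had 1.48, 1.96 and 2.05 TPM, M sorts 1.46, 1.87 and 1.76 TPM, and G+M sorts 1.06, 1.42 and 2.01 TPM. Intestinal G sorts had only 0.41, 0.59 and 0.61 TPM and intestinal M sorts 0.64, 0.48 and 0.47 TPM, below every BALB/c spleen library. APCmin/+ spleen groups had means between 0.25 and 0.437 TPM and marrow groups between 0.123 and 0.237 TPM, all overlapping their neighbours. Nox1 shares bases and strand with Xkrx in GENCODE M21. Xkrx had means between 7.70 and 13.5 TPM in the 6 spleen groups and at most 0.887 TPM elsewhere, and the part of shared bases in the spleen values of Nox1 was not tested.

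Noxo1, the organiser of Nox1, was above 1 TPM in every library and far more abundant than Nox1. Its intestinal means ran in the order G+M sorts (90.3 ± 12.4 TPM), all cells (86.2 ± 12.4), G sorts (68.6 ± 8.61) and M sorts (50.3 ± 7.10; SD, n = 3). The first 2 overlapped, while all cells, G sorts and M sorts did not overlap in turn. BALB/c spleen sorts had means between 6.26 and 8.26 TPM, APCmin/+ spleen sorts between 2.79 and 3.78 TPM and marrow groups between 1.48 and 2.23 TPM.

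Duox2 and Duoxa2 were intestinal transcripts in these data. Duox2 measured 38.1, 50.2 and 46.6 TPM in intestinal G sorts, 45.7, 28.4 and 48.1 TPM in all intestinal cells, 44.8, 29.4 and 41.9 TPM in G+M sorts, and 27.7, 42.4 and 37.9 TPM in M sorts. These 4 groups overlapped in turn, and the highest of the other 27 libraries had 0.26 TPM. Duoxa2 averaged 25.0 ± 5.79 TPM in G, 22.5 ± 3.86 in M, 19.7 ± 4.99 in all cells and 19.6 ± 3.33 in G+M sorts (SD, n = 3). Outside intestine it was listed at 0 in 20 libraries and did not exceed 0.07 TPM. The ratio of Duox2 to Duoxa2 was narrow in intestine, with group means between 1.59 and 2.06. The related genes Duox1 and Duoxa1 stayed at or under 0.23 TPM in the 12 intestinal libraries.

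Set side by side, the summed TPM of the 5 phagocyte members was highest in marrow M sorts (4058) and marrow G sorts (3541), between 1636 and 2394 in the spleen groups, 1309 in all marrow cells and between 105 and 197 in the intestinal groups. The summed TPM of the 4 epithelial members was between 109 and 154 in intestine, between 7.99 and 10.1 in BALB/c spleen, between 3.16 and 4.12 in APCmin/+ spleen and at most 2.40 in marrow. The ratio of the 2 sums averaged 0.697 in intestinal G+M sorts, 0.853 in G sorts, 1.33 in all cells and 1.81 in M sorts. In the other 9 groups it averaged between 163 and 1707, lowest in BALB/c spleen G sorts and highest in marrow M sorts. The 2 sets were thus of like abundance in intestine alone, with Cyba the main phagocyte term there and Noxo1 and Duox2 the main epithelial ones.

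The first comparison asks how the oxidase genes differ between granulocytic and monocytic sorts of the same site. Cybb was lower in G than in M sorts at each of the 4 sites, and 2 of these differences were called. A call required an adjusted p under 0.05 in limma, with Benjamini-Hochberg adjustment over 18466 genes, and a difference of at least 1 in log2(TPM + 1). In BALB/c spleen Cybb was lower by 1.32 ± 0.29 (SE; adjusted p = 0.00112), with 218, 242 and 221 TPM in G sorts, all below the M sorts. In APCmin/+ intestine it was lower by 1.70 ± 0.29 (adjusted p = 0.000234), with 3.78, 9.67 and 12.1 TPM in G and 25.7, 23.5 and 33.7 TPM in M sorts. In marrow the difference was -0.86 ± 0.29 (adjusted p = 0.0206) without overlap, and in APCmin/+ spleen -0.96 ± 0.29 (adjusted p = 0.0172), where 1 G library at 441 TPM lay within the M range. Both missed the fold required. The APCmin/+ spleen difference passed without G library 2 (-1.32, adjusted p = 0.00224), without M library 1 (-1.13, adjusted p = 0.0127) or without M library 2 (-1.06, adjusted p = 0.0212).

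Counts of members called were 0 of 9 in marrow, 1 of 9 in BALB/c spleen, 0 of 9 in APCmin/+ spleen and 2 of 9 in intestine. Over all genes 10.2%, 4.94%, 3.22% and 2.83% were called in the same comparisons in either direction. Cyba differed by -0.53 ± 0.17 in marrow (adjusted p = 0.0208) and by -0.33 to -0.36 at the other sites, under the fold required. At an unadjusted p under 0.05, 2 members passed in marrow (Cybb and Cyba), 1 in each spleen (Cybb) and 6 in intestine. None of the 4 epithelial members was called at any site, and Noxo1 and Duox2 in intestine were the only ones with an unadjusted p under 0.05. Of 13 partners of the phagocyte oxidase, which include Rac1, Prkcd, Vav1 and the proton channel Hvcn1, Rap1a alone was called in BALB/c spleen, where it was lower by 1.04. Their median difference was -0.31 in marrow, -0.20 in BALB/c spleen and 0.05 in APCmin/+ spleen, against 0.04, -0.05 and -0.08 over all genes. Monocyte genes moved with these comparisons. Of 8 monocyte genes, 8, 7, 7 and 3 were called lower in G sorts of marrow, BALB/c spleen, APCmin/+ spleen and intestine, and their summed TPM was 626 against 4281, 733 against 3312, 633 against 1857 and 123 against 604. The 11 neutrophil genes summed to 130740 TPM in marrow G sorts and 128496 in marrow M sorts, and 6 of the 11 were called higher in G sorts and none lower, with a median of 1.35. The part of either cell type in the level of Cybb was not tested.

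The ratio of subunits separated G from M libraries at all 4 sites, whereas the level of Cybb did so at 3. The ratio of Cybb to Ncf1, both in TPM, was 0.465, 0.484 and 0.487 in marrow G sorts and 1.04, 1.08 and 1.07 in marrow M sorts. In BALB/c spleen the ratios were 0.815, 0.861 and 0.899 in G and 2.64, 2.25 and 3.20 in M sorts. They were 0.726, 0.683 and 0.574 against 1.61, 0.801 and 1.54 in APCmin/+ spleen, and 0.913, 0.875 and 0.953 against 1.73, 1.65 and 1.24 in intestine. With 3 against 3 libraries an exact permutation test cannot give a p under 0.05, so the ratios are given as a description. The ratio of Cyba to Cybb had group means between 0.985 and 2.34 outside intestine and between 3.76 and 14.5 in the 4 intestinal groups, where it was highest in G+M sorts and lowest in M sorts.

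**Figure D2:**
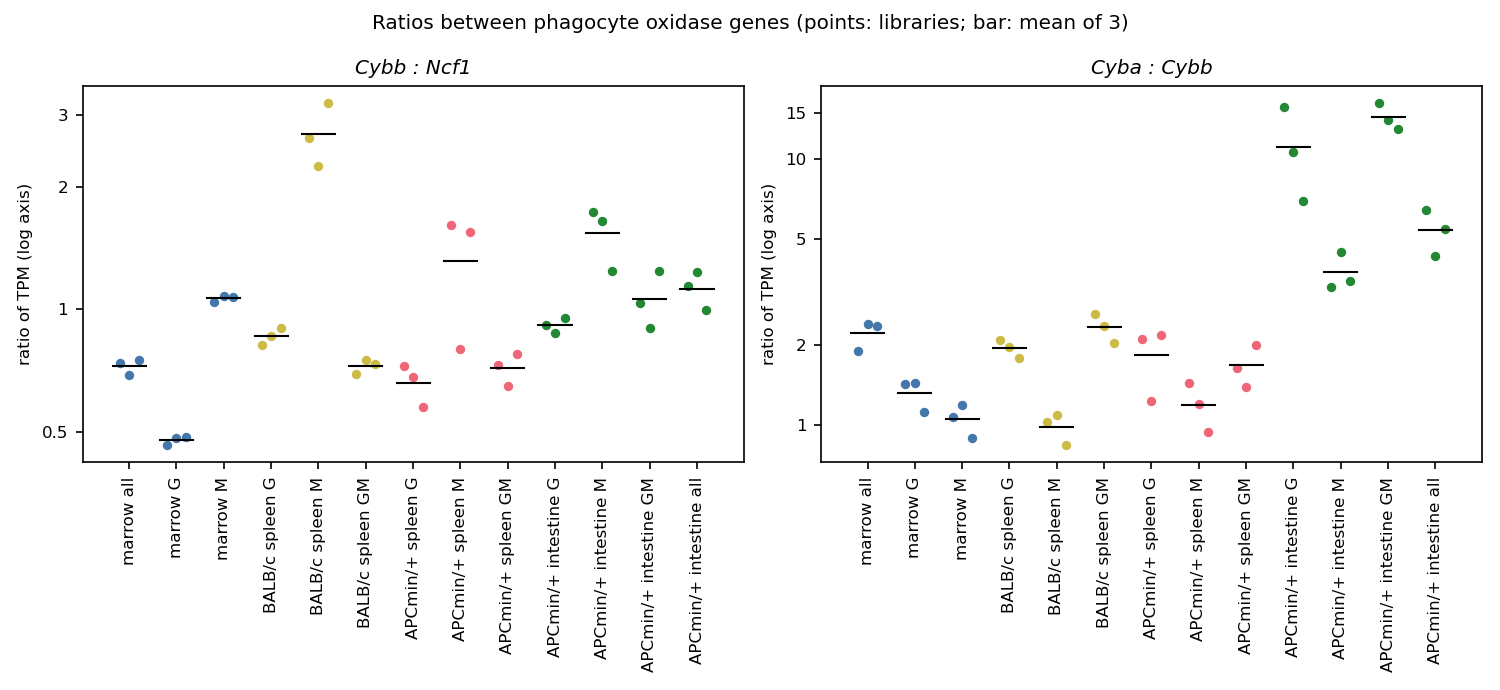
Ratios of TPM (log axes) of Cybb to Ncf1 and of Cyba to Cybb in each library, with a bar at the mean of 3 libraries. Within each site the G sorts lie below the M sorts for Cybb to Ncf1, and the intestinal libraries lie highest for Cyba to Cybb.

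In intestine, Ncf4 was called lower in G than in M sorts together with Cybb, by 1.40 ± 0.26 (SE; adjusted p = 0.000578), with 4.51, 9.21 and 9.89 TPM in G and 15.7, 19.6 and 31.9 TPM in M sorts. The libraries did not overlap. Rac2 differed by -0.93 ± 0.22 (adjusted p = 0.00595) and Ncf1 by -1.0 ± 0.31 (adjusted p = 0.0526), and neither was called. With replicate number as a block shared by all 13 groups, Ncf1 passed at -1.0 (adjusted p = 0.0217). Hvcn1, Arhgdib and Dock2 of the 13 partners were called lower in G sorts, by 1.63, 1.49 and 1.06, and the median of the 13 was -0.51 against 0.14 over all genes. Together, 9 B and plasma cell genes had 448 TPM in intestinal G and 5179 in M sorts, and their part in these differences was not tested. Both calls ended when only these 6 libraries were fitted (adjusted p = 0.188 for Cybb and 0.215 for Ncf4).

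Whether the contrast of G and M differs between intestine and spleen of APCmin/+ mice was tested as an interaction. Ncf4 differed between G and M by 0.19 in spleen and by -1.40 in intestine, an interaction of -1.59 ± 0.36 (SE; adjusted p = 0.00224). Rac2 differed by 0.14 in spleen and by -0.93 in intestine, an interaction of -1.07 ± 0.30 (adjusted p = 0.011). These were 2 of 9 members, against 8.52% of all genes. For Cybb the interaction was -0.74 ± 0.40 (adjusted p = 0.182), so its contrast was not shown to differ between the tissues. Both calls ended in a fit of only these 4 groups (adjusted p = 0.0851 for Ncf4 and 0.177 for Rac2). The call of Rac2 also ended without spleen M library 1 (-0.89), intestinal G library 1 (-0.77), spleen G library 2 (-0.96), spleen G library 3 (-1.0, just under the fold required) or intestinal M library 3 (-0.78).

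The next comparison sets intestinal sorts against spleen sorts of the same name in APCmin/+ mice. All 5 phagocyte members were lower in intestine in each of the 3 sorts, and Noxo1, Duox2 and Duoxa2 were higher in each. Duox2 and Duoxa2 passed the filter through intestinal libraries alone and so had to differ here, and they are left out of the counts. Of the other 7 members, 6 were called for G sorts, 6 for M sorts and 7 for G+M sorts, against 40.8%, 39.9% and 39.3% of all genes in either direction, shares that include genes with the same filter limit.

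Among phagocyte members, Cyba fell least between spleen and intestine, by 2.55 ± 0.17 in G, 2.57 ± 0.17 in M and 2.38 ± 0.17 in G+M sorts (SE). In the same order the differences were -4.94, -4.20 and -5.28 for Cybb, -5.43, -4.45 and -5.82 for Ncf1, -5.45, -3.86 and -5.54 for Ncf4, and -5.26, -4.19 and -5.86 for Rac2 (SE between 0.22 and 0.31). Adjusted p values were 1.71e-13 or smaller for these 4 genes and 3.17e-13 or smaller for Cyba. Most of the listed leukocyte genes were lower with these members. All 11 neutrophil and all 7 macrophage genes were called lower in each sort, with medians of -8.26 and -3.39 in G, -7.87 and -3.24 in M and -8.30 and -2.67 in G+M sorts. In the same order, 8, 7 and 8 of 8 T and NK cell genes were called lower. Of 8 monocyte genes, 5, 6 and 6 were called lower and 1 higher in each sort. Of 9 B and plasma cell genes, 7, 5 and 7 were called lower and 0, 1 and 0 higher. The summed TPM of these 9 genes in M sorts was higher in intestine (5179) than in spleen (3177). The part of these cell types was not tested. Of the 13 oxidase partners, 9, 10 and 9 were called lower in G, M and G+M sorts, with medians of -3.54, -2.54 and -3.78 against -0.16, -0.43 and -0.15 over all genes. The list of enzymes that handle superoxide and peroxide did not follow 1 direction. Of its 23 tested genes, 10 were called higher and 3 lower in G sorts, with Gpx2, an epithelial glutathione peroxidase, higher by 8.23 and Hmox1, a haem-degrading enzyme, lower by 6.41.

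Noxo1 rose between spleen and intestine by 3.90 ± 0.21 in G, 3.78 ± 0.21 in M and 4.46 ± 0.21 in G+M sorts (SE; adjusted p at most 4.88e-16). As a description with no test, the differences were 5.42, 5.07 and 5.27 for Duox2 and 4.68, 4.49 and 4.33 for Duoxa2. Since Duox2 and Duoxa2 were near or listed at 0 in spleen, these values depend on the constant of 1 TPM added before the logarithm and understate the fold. Noxa1, the activator of Nox1, which also reached 1 TPM in intestine alone, differed by 3.57, 2.94 and 4.25. Among 9 tested mucosal genes, which include Muc2, Tff3 and Reg3b, 7 were called higher in each sort and 1, 2 and 1 lower in G, M and G+M sorts. Lcn2, an iron-sequestering protein that neutrophils also make, differed by -9.23 in M sorts. The 12 epithelial genes moved in the same direction as these members, from 27.8 to 63.1 TPM in APCmin/+ spleen sorts to at least 12710 TPM in intestine, and their part in the rise was not tested.

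Nox1 did not follow the other epithelial members in the G and M sorts. It rose by 2.06 ± 0.15 in G+M sorts (SE; adjusted p = 1.72e-13), while the differences were 0.29 ± 0.15 in G (adjusted p = 0.0829) and 0.30 ± 0.15 in M sorts (adjusted p = 0.0733). All intestinal cells against all marrow cells showed the same division of the 2 sets. The 7 members other than Duox2 and Duoxa2 were all called, against 39.3% of all genes, with differences between -1.79 (Cyba) and -3.80 (Rac2) for the phagocyte members and of 2.25 for Nox1 and 5.14 for Noxo1. Duox2 and Duoxa2 differed by 5.34 and 4.34, with no test. Strain, genotype, tissue and any difference in age cannot be told apart in that comparison, since an age (P7) is given for the marrow mice alone.

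**Figure D3:**
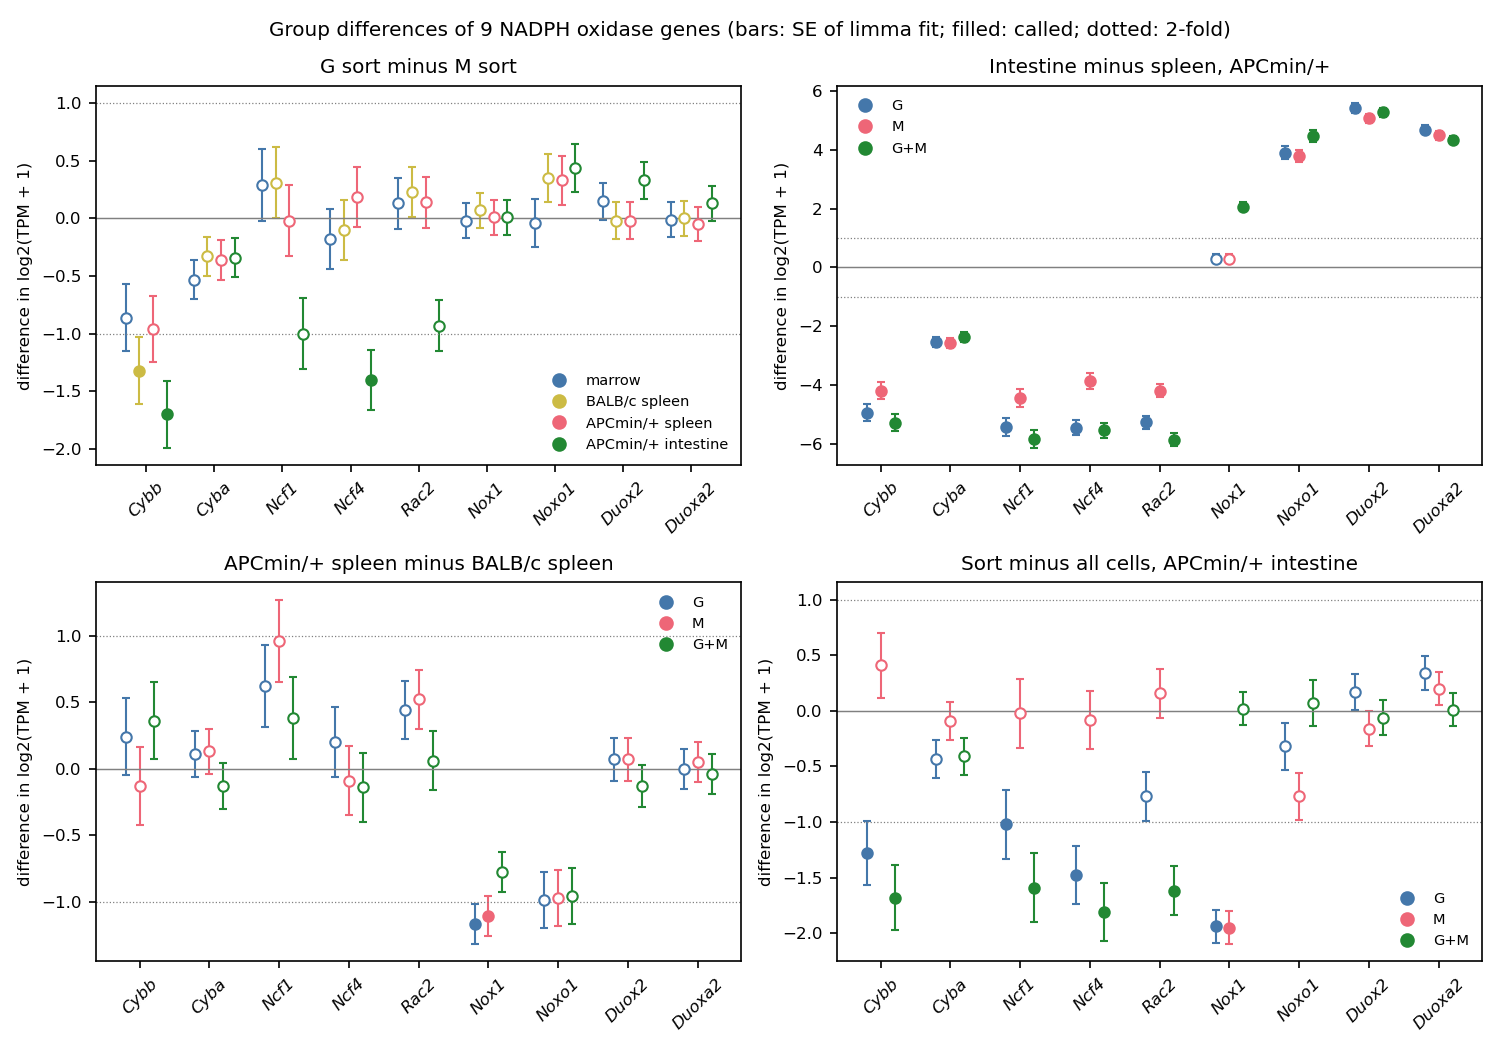
Differences in log2(TPM + 1) of the 9 oxidase genes between groups, with bars for the SE of the limma fit and filled points for called differences; Duox2 and Duoxa2 passed the filter through intestine alone. The upper right panel shows phagocyte genes below 0 and epithelial genes above 0, with Nox1 near 0 in G and M sorts, and the lower right panel shows Nox1 near -1.94 in G and M sorts and near 0 in G+M sorts.

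Within intestine, each sort was compared with all intestinal cells, and the 3 comparisons share these control libraries. Called members numbered 4 of 9 for G, 1 of 9 for M and 4 of 9 for G+M sorts, against 5.38%, 4.42% and 3.24% of all genes in either direction. None of the phagocyte members was called higher in a sort than in all cells. In G+M sorts Cybb was lower by 1.68 ± 0.29, Ncf1 by 1.59 ± 0.31, Ncf4 by 1.81 ± 0.26 and Rac2 by 1.62 ± 0.22 (SE; adjusted p between 1.36e-05 and 0.00119). In G sorts Cybb was lower by 1.28 (adjusted p = 0.002), Ncf1 by 1.02 (adjusted p = 0.026) and Ncf4 by 1.48 (adjusted p = 0.000116). In M sorts the 5 phagocyte genes differed by between -0.09 and 0.41, none with an unadjusted p under 0.05. The G and M libraries also differed from all cells in genes typical of a stretch of intestine, given below beside Nox1. The part of the stretch sampled in these phagocyte differences was not tested. Macrophage genes, 7 in all, summed to 86.7 in G+M, 121 in G and 212 in M sorts against 335 TPM in all cells, and none was called. In G+M sorts 6 of 8 T and NK, 5 of 9 B and plasma, 4 of 6 stroma and endothelium and 3 of 8 monocyte genes were called lower than in all cells, and in G sorts 2, 4, 6 and 2, and the part of these cell types was not tested. The 4 calls in G+M sorts ended when only these 6 libraries were fitted (adjusted p between 0.1 and 0.133), as did the 3 phagocyte calls in G sorts (0.153 to 0.246). Without G library 1 the differences in G sorts were -0.85 for Cybb (adjusted p = 0.049) and -0.58 for Ncf1 (adjusted p = 0.335), and the Ncf1 call also ended without library 2 or 3 of all cells (adjusted p = 0.155 and 0.0633).

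Nox1 divided the intestinal libraries into G and M sorts on one side and G+M sorts and all cells on the other. Against all cells it was lower by 1.94 ± 0.15 in G sorts (SE; adjusted p = 2.72e-11) and by 1.95 ± 0.15 in M sorts (adjusted p = 2.09e-11), and it differed by 0.02 ± 0.15 in G+M sorts. In comparisons added after these values were seen, Nox1 was higher in G+M sorts by 1.96 than in G and by 1.97 than in M sorts (adjusted p = 2.1e-11 and 1.62e-11). These calls made 1 and 5 of 9 members, against 1.94% and 6.49% of all genes, the other 4 being Cybb, Ncf1, Ncf4 and Rac2, lower in G+M than in M sorts by 2.10, 1.57, 1.73 and 1.79. The lowest Nox1 library of G+M sorts and all cells, at 3.94 TPM, lay above the highest of the G and M sorts, at 0.64 TPM.

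The partners of Nox1 had smaller differences across these groups. Noxo1 differed from all cells by -0.32 ± 0.21 in G and -0.77 ± 0.21 in M sorts (SE; adjusted p = 0.357 and 0.00805), under the fold required. Noxa1 had 7.59, 15.7 and 14.95 TPM in G sorts and 4.50, 8.41 and 9.94 TPM in M sorts, against 21.6, 16.7 and 21 TPM in G+M sorts and 20.7, 17.0 and 19.3 TPM in all cells. It fell by 1.27 ± 0.19 in M sorts (adjusted p = 1.07e-05) and differed by -0.60 in G sorts. Duox2 differed from all cells by between -0.16 and 0.17 in the 3 sorts and Duoxa2 by between 0.01 and 0.34, with no call. The ratio of Noxo1 to Nox1 averaged 18.1 in all cells and 18.9 in G+M sorts, and 130 and 98.2 in G and M sorts. Saa1, a serum amyloid gene of the mucosal list, averaged 612 TPM in all cells and 775 in G+M sorts and 4.84 and 4.68 TPM in G and M sorts.

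Genes typical of a stretch of intestine moved with Nox1. The summed TPM of 6 genes of large intestine, a list chosen after the values were seen, was 2569, 1548 and 2731 in G+M sorts and 2763, 1489 and 2425 in all cells, and between 84.3 and 152 in the 6 G and M libraries. Car1, a carbonic anhydrase among them, averaged 1113 and 1181 TPM in G+M sorts and all cells and 0.863 and 0.317 TPM in G and M sorts. The 5 genes of small intestine, chosen likewise, summed to 4546 and 4843 TPM in G+M sorts and all cells and to 11669 and 12562 TPM in G and M sorts. Ddx3y, a Y-linked gene, had between 21.7 and 29.2 TPM in libraries 1 and 2 of G+M sorts and all cells, and at most 0.07 TPM in the other 8 intestinal libraries. In library 3 of those 2 groups, where Ddx3y was at most 0.07 TPM, Nox1 had 6.33 and 5.98 TPM. The parts of the stretch of intestine sampled and of the sex of the animals in the differences between these groups, of Nox1 or other members, were not tested.

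**Figure D4:**
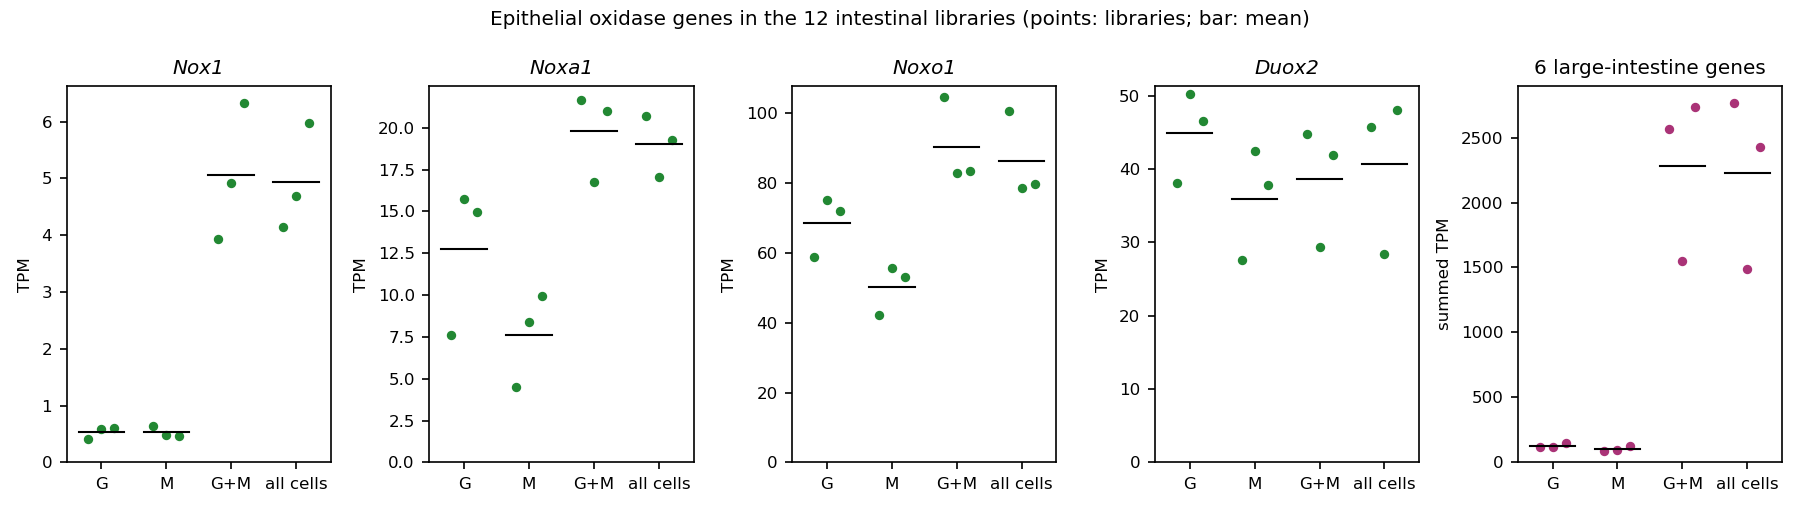
TPM of Nox1, Noxa1, Noxo1 and Duox2 and the summed TPM of 6 large-intestine genes in the 12 intestinal libraries, with a bar at the mean of 3 libraries and axes from 0. Nox1 and the large-intestine genes are high in G+M sorts and all cells, while Duox2 overlaps in all 4 groups.

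Sorted marrow cells were compared with all marrow cells, and both comparisons share these control libraries. In G sorts 4 of 9 members were called and in M sorts 5 of 9, each against 19.1% of all genes in either direction. In G sorts Cybb rose by 1.52 ± 0.29, Ncf1 by 2.12 ± 0.31, Ncf4 by 1.56 ± 0.26 and Rac2 by 1.25 ± 0.22 (SE; adjusted p at most 4.55e-05), and Cyba differed by 0.78 ± 0.17 (adjusted p = 0.000377), under the fold required. In M sorts Cybb rose by 2.38, Cyba by 1.31, Ncf1 by 1.83, Ncf4 by 1.74 and Rac2 by 1.12 (adjusted p at most 7.29e-05). No library of a sort overlapped all cells for any of these 5 genes. Of the 13 oxidase partners 7 were called higher in each sort, among them the kinase Prkcd, which rose by 1.33 in G and 1.72 in M sorts. Of 7 genes that supply NADPH, Pgd and G6pdx of the pentose phosphate pathway were called higher in G sorts, by 1.48 and 1.19, and in M sorts, by 1.26 and 1.55, joined there by Idh1. Erythroid genes, 6 in all, summed to 56146 TPM in all cells, 1491 in G and 646 in M sorts, and their part in these rises was not tested. The 4 epithelial members differed by between -0.14 and 0.40, none with an unadjusted p under 0.05.

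Between the spleens of APCmin/+ and BALB/c mice, Nox1 was the only member called, at levels of 2.05 TPM or less. In G sorts Nox1 was lower in APCmin/+ mice by 1.17 ± 0.15 (SE; adjusted p = 4.45e-07), with 0.49, 0.08 and 0.23 TPM against at least 1.48 TPM. In M sorts it was lower by 1.11 ± 0.15 (adjusted p = 8.43e-07), with 0.41, 0.20 and 0.14 TPM against at least 1.46 TPM. In G+M sorts the difference was -0.78 ± 0.15 (adjusted p = 0.00019), under the 1 required, with means of 0.437 against 1.50 TPM. The libraries did not overlap in any sort. Noxo1 differed by -0.99, -0.97 and -0.96 in G, M and G+M sorts (SE 0.21; adjusted p between 0.000527 and 0.000892), also under the 1 required. Its means in that order were 3.78, 2.79 and 3.21 TPM in APCmin/+ and 8.26, 6.26 and 7.24 TPM in BALB/c sorts. The differences of both genes understate the fold in TPM, since 1 TPM was added before the logarithm. Members called numbered 1, 1 and 0 of 9, against 8.87%, 11.5% and 9% of all genes in either direction, and 2, 4 and 2 had an unadjusted p under 0.05.

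No phagocyte member was called between the spleens, and Ncf1 came nearest, with a difference of 0.96 ± 0.31 in M sorts (adjusted p = 0.0166). It had 254, 558 and 497 TPM in APCmin/+ and 206, 224 and 208 TPM in BALB/c M sorts, without overlap, and passed without APCmin/+ M library 1 (1.31, adjusted p = 0.00203). The summed TPM of the neutrophil genes was 83622 in APCmin/+ and 6484 in BALB/c M sorts, with 10 of 11 called higher (median 3.39), and 6 of 8 monocyte genes were called lower, and their part in the difference of Ncf1 was not tested. In G and G+M sorts 2 and 3 of the 11 neutrophil genes were called higher and 4 and 6 of the 7 macrophage genes lower. After rescaling the libraries, the Nox1 call in M sorts ended (-0.94, adjusted p = 1.29e-05) and Ncf1 passed (1.14, adjusted p = 0.0061). Noxo1 was called in each sort with a constant of 0.1 in place of 1 (-1.17, -1.20 and -1.15), as was Nox1 in G+M sorts (-1.55), and Noxo1 was also called without BALB/c G library 1, APCmin/+ G library 1, BALB/c M library 2, APCmin/+ M library 1, or library 3 of either G+M group (between -1.23 and -1.01). Strain, the immune deficiency that the BALB/c labels state and the Apc mutation cannot be told apart here.

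Over the 39 libraries the members formed 2 blocs, a description that rests on the gap between intestine and the rest. Pearson correlations of log2(TPM + 1) between the phagocyte members were between 0.97 and 0.99, and the correlation of Duox2 with Duoxa2 was 1.0. Inside the 12 intestinal libraries Duox2 and Duoxa2 still correlated at 0.85, and Cybb and Ncf1 at 0.96. Outside intestine, over 27 libraries, Cybb correlated with Ncf1 at 0.63 and with Rac2 at 0.58, while Ncf1 correlated with Rac2 at 0.97. Nox1 and Noxo1 correlated at 0.68 over all libraries, at 0.75 in intestine and at 0.86 elsewhere, and Nox1 with Duox2 at 0.51, -0.05 and -0.01. Libraries of a group share their tissue and sort.

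Genes whose group means followed a member most closely were ranked by Pearson's r of log2(TPM + 1) over 13 group means. For Cybb these were Fcer1g (0.995), Pik3r6, Clec4a2, Vsir and Ap1s2 (0.989), and for Ncf4 they were Was (0.997), Cnn2, Arhgap9, Ccdc88b and Coro1a (0.996). For Duox2 they included Nr1i2, Tinag, Themis3 and Chmp4c, at 0.9997 or above, each with means of at most 0.107 TPM outside intestine. For Noxo1 they were Gstp2 (0.991), Errfi1, Pim3, Tnfaip1 and Bspry (0.990). Nox1 had a looser set, with Slc35a1 (0.961), Eif4ebp3 (0.927), Actr1b (0.918), Sult1a1 (0.914) and Tgoln1 (0.871). Sult1a1, a sulfotransferase, had 88.2 TPM in G+M sorts and 91.7 in all intestinal cells against 3.96 and 5.44 TPM in G and M sorts, the same division as Nox1.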

How the data were processed

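RNA-seq was described for 39 mouse samples. Sorted cells went into Trizol, and a NextSeq 500 read TruSeq Stranded mRNA libraries as single reads of 75 bases, per the labels' protocols. Per the submitters' processing notes, STAR 2.6.1c, RSEM and the build mm10 were used. The deposited values are TPM per gene and sum to 1000000 in each library, so the read depth cannot be known and intervals for counting error are left out. Of 53465 genes, 18466 reached 1 TPM in 3 or more libraries. Values were analysed as log2(TPM + 1) with limma 3.58.1 (trended empirical Bayes) and 1 mean for each of the 13 groups, so all groups share 1 estimate of the spread. p values were adjusted by Benjamini-Hochberg over all 18466 genes. Calls required an adjusted p under 0.05 together with a difference of 1 or more in log2(TPM + 1). That is a 2-fold change of TPM + 1, and so a larger fold in TPM at low levels. The method was tested on simulated data.

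The members and lists were chosen with earlier results of these data known, and the lists of large- and small-intestine genes and the comparisons of G+M with G and M intestinal sorts were added after values were seen. Partner genes named in the text are the called list members with the largest differences, besides oxidase subunits and genes that share bases with a member. Alternatives were a pseudocount of 0.1, no filter, rescaling by the median ratio, leaving out each library, blocking on replicate number and fitting only the groups compared. Replicate numbers, whose meaning the labels do not give, were checked by the correlation of deviations from group means. Every same-numbered pair correlated above 0.1 for G against M in APCmin/+ spleen (0.375 to 0.555) and intestine (0.432 to 0.599), and in intestine for G+M against all cells (0.590 to 0.643) and G (0.137 to 0.189). Promoter windows are RefSeq's (GRCm38.p6), gene positions GENCODE M21's. Protein sequences and the promoters of Ncf4 and Rac2 were not used here. A few genes of the lists are not reported here.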

Additional observations from a re-analysis of the deposited data

Results flagged for a closer look

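The contrast of G with M sorts was called different between intestine and spleen of APCmin/+ mice for Ncf4 and Rac2, by the interaction term of the limma fit of all groups. Neither was called in a fit of only the groups compared (adjusted p = 0.0851 for Ncf4 and 0.177 for Rac2). The Rac2 call also ended when certain single libraries were left out. For Ncf4, the phosphoinositide-binding subunit, the interaction was -1.59 (log2, adjusted p = 0.00224). The G libraries lay at 297, 423 and 403 TPM and the M libraries at 252, 329 and 411 TPM in spleen, where they overlapped, and did not overlap in intestine. For Rac2, the GTPase of the complex, the interaction was -1.07 (adjusted p = 0.011), with 401, 593 and 565 TPM in spleen G and 363, 526 and 526 TPM in spleen M sorts. In intestine Rac2 had 7.83, 15.1 and 15.8 TPM in G and 21.5, 18.4 and 37.0 TPM in M sorts. The summed TPM of B and plasma cell genes was higher in M than in G sorts of intestine (5179 against 448) and not in spleen (3177 against 4448), and its part in these interactions was not tested.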

How the results depend on the processing

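None of the 82 member differences that were checked under the alternatives reversed direction, and the direction of the others was not checked. In a fit of only the groups compared, members called were 0 for G against M in intestine (2 in the fit of all groups), 1 for G sorts and 0 for G+M sorts against all intestinal cells (4 and 4), and 0 for the interaction (2). With the replicate block added to that fit, an alternative chosen after seeing the data, 0 members were called for G against M in intestine, for G or M sorts between the spleens, for each intestinal sort against all cells and for G+M against G or M sorts, and 1 for the interaction. With the replicate block in the fit of all groups, 81 of 82 reported differences stayed on their side of the threshold, and the exception was Ncf1 for G against M in intestine (-1.0, adjusted p = 0.0217). That block is 1 factor shared by all 13 groups. Every same-numbered pair correlated above 0.1 only in some comparisons among APCmin/+ groups, so the block does not model pairing within those groups alone. After rescaling, 4 members were called for G against M in intestine and 4 for the interaction. A pseudocount of 0.1 gave 2 calls in each of the G, M and G+M sorts between the spleens. No filter changed no call.

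Leaving out 1 library at a time gave 0 to 1 members for G against M in APCmin/+ spleen, 2 to 4 in intestine, 1 to 2, 1 to 3 and 0 to 1 for G, M and G+M sorts between the spleens, 2 to 4 for G sorts against all intestinal cells, 1 to 2 for G+M against G sorts and 1 to 3 for the interaction. Over all genes, the fit of only the groups compared called 5 genes for G+M sorts against all intestinal cells (599 in the fit of all groups), 66 for G against M in intestine (523) and 0 for G against M in APCmin/+ spleen (594), where 2622 genes had an unadjusted p under 0.05. Depth is unknown, so the counting error could not be estimated, which bears most on levels under 1 TPM, such as those of Nox1 in intestinal G and M sorts, APCmin/+ spleen and marrow.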
